A study of Mus musculus with 4 samples.

Results

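The 41 genes described here are ligands, receptors, antagonists, signal transducers and response genes of the BMP and TGF-beta pathways, chosen by name from the 29924 gene names on the arrays used. All 41 had at least 1 probe. The arrays identify the genes that the results turn on by the transcripts NM_007554 for *Bmp4*, NM_007556 for *Bmp6*, NM_009368 for *Tgfb3*, NM_019483 for *Smad9*, NM_008542 for *Smad6*, NM_011824 for *Grem1* and NM_009367 for *Tgfb2*. Newborn mice (P0) gave the ureters, which were kept as explants for 8 days in medium with the solvent DMSO or with 2 µM purmorphamine, a small-molecule agonist of SHH signaling that was dissolved in DMSO. Control ureters had the genotype Pparg (fl/?), from littermates without the cre, and *Pparg-cKO* ureters were Pax2-cre/+ and Pparg (fl/fl), so that recombination removed exons 2 and 3 of the nuclear receptor gene *Pparg* from the ureteric epithelium, where Pax2-cre is active along with the nephric duct and the collecting ducts of the kidney, and not from the mesenchyme. The strain given for both genotypes is NMRI. RNA was pooled by sex, and the pools were hybridized to 4 arrays of 1 slide in 2 colors, with the DMSO and the purmorphamine pool of 1 genotype and 1 sex on each array. The 4 groups of genotype and treatment thus had 2 pools each, 1 male and 1 female, and the dyes were exchanged between male and female arrays. The number of ureters in a pool is not given in the sources used here. The p-values between the genotypes measure the spread between the 2 pools of a group. Those for purmorphamine measure the spread of the ratio of purmorphamine to DMSO between the 2 arrays of a genotype. Both spreads were estimated over all groups together, and the pools and arrays also differ in sex and dye.

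BMP and TGF-beta ligands are secreted dimers that assemble type I and type II receptor kinases, which phosphorylate receptor-regulated SMAD proteins. BMP ligands act through SMAD1, SMAD5 and SMAD9 and raise *Id* genes and the inhibitory *Smad6* and *Smad7*, while secreted antagonists such as gremlin, noggin and follistatin trap the ligands outside the cell. In the developing ureter *Bmp4* is made in the mesenchyme around the epithelium, depends on epithelial SHH, and is needed for smooth muscle and urothelial development. TGF-beta ligands are deposited in the matrix as latent complexes and are known for effects on matrix production and epithelial growth.

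All intensities are given on a log2 scale after background correction and normalization, as 1 value per pool for the brightest probe of a gene. A log2 difference of 1 is a doubling of the intensity. Where the pools of groups lay apart for a gene, the share of all genes that lay apart likewise was not worked out. A gene was called when the adjusted p from limma was under 0.05, with the Benjamini-Hochberg adjustment over the 20229 genes tested. Of the 41 genes, 40 were well above background in all 8 pools and were tested. The exception, *Bambi*, which encodes a pseudoreceptor that blocks the pathway, was not well above background in any of the 8 pools, with log2 intensities between 6.14 and 6.31. In addition, the filter of the methods was applied, which carries no test: an intensity above 100 in the brighter pool and a change of 1.5-fold or more that had the same direction for the male and for the female pair.

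The targeted gene *Pparg* had log2 intensities of 14.79 (male) and 15.31 (female) in control pools with DMSO and 15.10 and 15.18 in those with purmorphamine. In *Pparg-cKO* pools they were 15.55 and 15.58 with DMSO and 15.95 and 16.10 with purmorphamine, so that the mRNA level was not lower. The probe of *Pparg* was not placed on the exons, and since the deleted allele still gives an mRNA, these values do not check the deletion. *Shh* showed less signal in *Pparg-cKO* ureters, with a log2 fold change of -2.93 with DMSO (standard error 0.23, adjusted p = 0.00225) and of -2.12 with purmorphamine (standard error 0.23, adjusted p = 0.00976). *Ptch1*, which SHH signaling activates, rose with purmorphamine by 1.00 in control (adjusted p = 0.0427) and by 1.62 in *Pparg-cKO* ureters (adjusted p = 0.014). *Hhip*, another target, rose by 2.19 in *Pparg-cKO* ureters (adjusted p = 0.0164), and its change of 1.33 in control ureters (adjusted p = 0.062) was not past the threshold. Nor were the differences of 1.06 and 1.34 for *Gli1*, the transcription factor gene that SHH signaling activates (adjusted p = 0.114 and 0.052). All 10 urothelial, 8 smooth muscle and 7 fibroblast markers were well above background in every pool. Of the kidney markers, 3 of 5 were called higher in *Pparg-cKO* than in control ureters with DMSO and 3 of 5 were called lower with purmorphamine in *Pparg-cKO* ureters. The summed linear intensity of these kidney markers was 5172 and 5207 in the *Pparg-cKO* pools with DMSO and 418 to 887 in the other 6. Of the 7 leukocyte markers tested, 3 were called lower with purmorphamine in each genotype, and the summed intensity was 132058 to 185878 in the pools with purmorphamine against 204344 to 265021 in those with DMSO. In such bulk samples, fewer cells of a type and less RNA per cell cannot be told apart.

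Purmorphamine raised 5 of the 40 genes and lowered 1 in *Pparg-cKO* ureters. The ligand genes *Bmp4*, *Bmp6* and *Tgfb3*, the SMAD gene *Smad9* and the inhibitory *Smad6* rose by 1.48-fold to 1.96-fold, and the antagonist gene *Grem1* fell. Among all 20229 genes, 2.02% were called higher and 3.1% were called lower in this comparison. The median log2 change was 0.23 over the 40 genes and 0.00 over all genes, and 25 of the 40 were higher and 9 lower with purmorphamine on both arrays, against 33.9% and 36.1% of all genes. In control ureters only *Bmp6* was called, where 0.405% of all genes were called higher and 1.12% lower, and the median was 0.18 against 0.02 over all genes. There, 24 of the 40 genes were higher and 6 lower on both arrays (30.9% and 28% of all genes). An unadjusted p under 0.05 was reached by 14 genes that were higher and 3 that were lower in *Pparg-cKO* ureters, and by 13 higher and 3 lower in control ureters, against 22.2% and 19.6% of all genes in either direction. No call for a difference of the response between the genotypes was made in the 40 genes, nor in any of the 20229 genes (0%), of which 670 had an unadjusted p under 0.05 for this difference. The filter of the methods was met by 6 of 38 bright genes in *Pparg-cKO* and 3 of 38 in control ureters, where it was met by 8.67% and 6.45% of all bright genes. The calls rest on few arrays. Leaving out the female *Pparg-cKO* array left 1 array of that genotype. It lowered the number of calls for the response of *Pparg-cKO* ureters among the 40 genes and among all genes. With the male *Pparg-cKO* array or either control array left out, some of the 40 genes were still called. On the processed signals of the scanner software, or without the filter on dim probes, 0 of the 40 were called in either genotype. Without that filter, 323 of all 29924 genes were called in *Pparg-cKO* and 13 in control ureters. On those processed signals 0 of all 20229 genes were called for purmorphamine in either genotype.

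**Figure D1:**
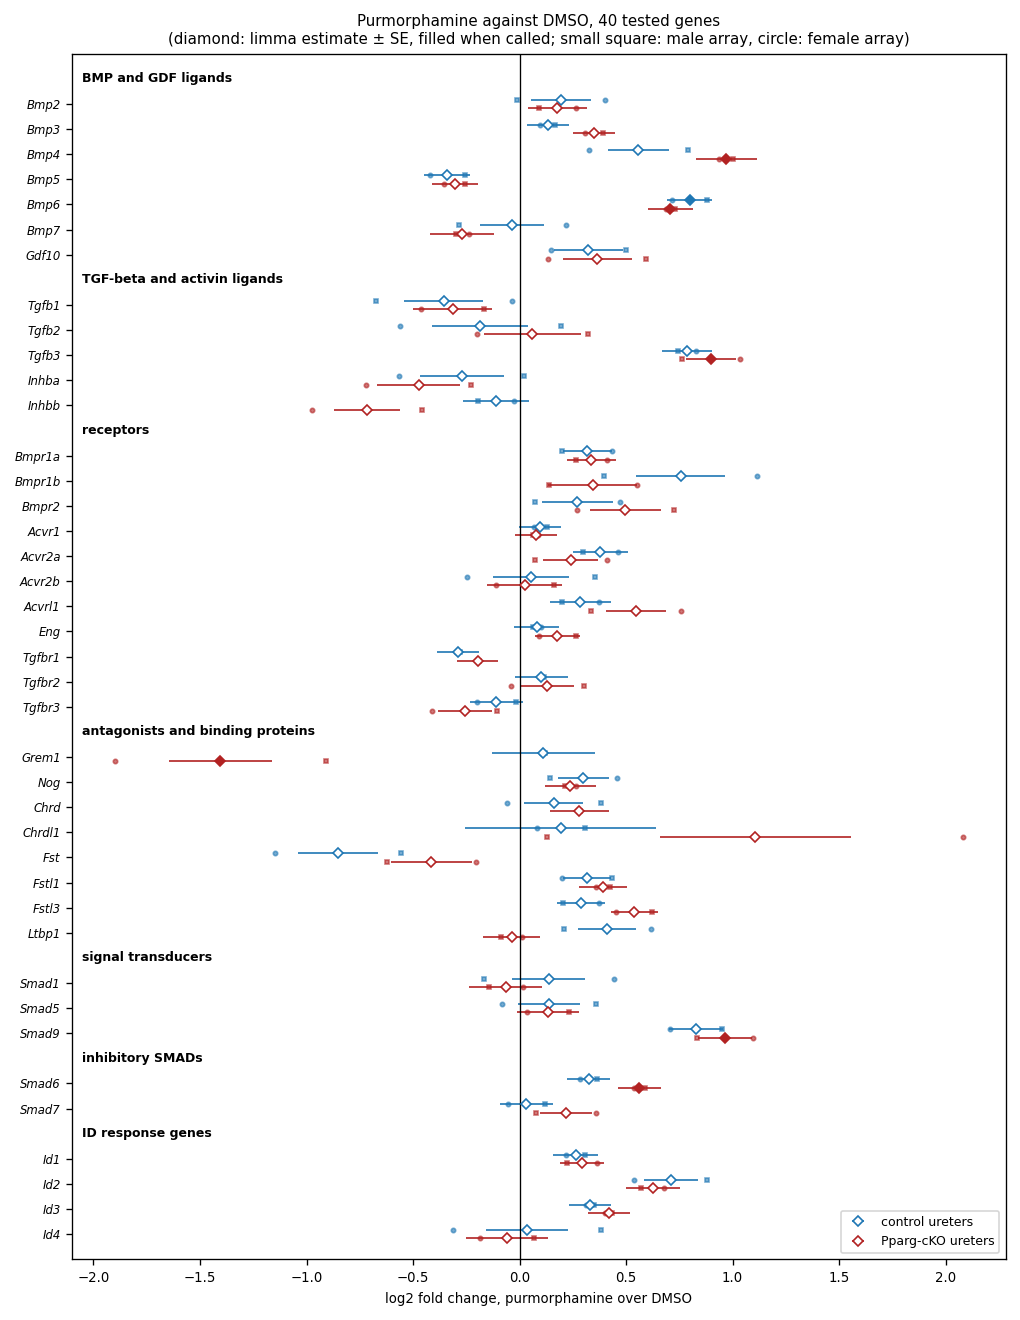
Log2 fold change of purmorphamine over DMSO (horizontal axis) for the 40 tested genes (vertical axis, by role) in control (blue) and *Pparg-cKO* ureters (red). Diamonds with bars are limma estimates with their standard errors, filled when called, and small squares and circles are the male and the female array. *Bmp6* was called in both genotypes, *Bmp4*, *Tgfb3*, *Smad9* and *Smad6* were called higher and *Grem1* was called lower in *Pparg-cKO* ureters.

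For the genes that were called in *Pparg-cKO* ureters, the 250 bases before the RefSeq gene start are shown (build GRCm38.p6, 5′ to 3′ on the strand of the gene), because these genes moved under the same agonist. A table of promoters held 29 of the 41 genes and 5 of the 6 called ones, the exception being *Tgfb3*. Capitals mark matches to GGCGCC, a GC-rich element that SMAD proteins bind, or to GTCTAGAC, the palindromic SMAD box. A binding sequence of GLI factors, GACCACCCA, was searched as well. Both strands of the 250 bases before and the 50 bases after the start were searched.
*Bmp4*, chr14:46390670-46390919, strand -: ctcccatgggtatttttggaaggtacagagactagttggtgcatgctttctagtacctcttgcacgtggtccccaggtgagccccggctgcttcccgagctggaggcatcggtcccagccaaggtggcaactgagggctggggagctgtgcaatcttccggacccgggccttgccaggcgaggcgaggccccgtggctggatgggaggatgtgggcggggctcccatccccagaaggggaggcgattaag
*Bmp6*, chr13:38345466-38345715, strand +: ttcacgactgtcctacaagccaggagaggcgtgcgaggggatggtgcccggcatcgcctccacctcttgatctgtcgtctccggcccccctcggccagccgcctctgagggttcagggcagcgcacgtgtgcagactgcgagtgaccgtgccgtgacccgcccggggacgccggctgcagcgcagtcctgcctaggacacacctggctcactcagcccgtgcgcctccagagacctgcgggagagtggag
*Smad9*, chr3:54755332-54755581, strand +: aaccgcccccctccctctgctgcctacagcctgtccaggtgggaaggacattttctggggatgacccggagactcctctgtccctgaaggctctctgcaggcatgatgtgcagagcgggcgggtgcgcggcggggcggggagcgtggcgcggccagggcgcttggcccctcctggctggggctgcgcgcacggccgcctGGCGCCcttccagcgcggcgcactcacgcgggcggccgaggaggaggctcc
*Smad6*, chr9:64022060-64022309, strand -: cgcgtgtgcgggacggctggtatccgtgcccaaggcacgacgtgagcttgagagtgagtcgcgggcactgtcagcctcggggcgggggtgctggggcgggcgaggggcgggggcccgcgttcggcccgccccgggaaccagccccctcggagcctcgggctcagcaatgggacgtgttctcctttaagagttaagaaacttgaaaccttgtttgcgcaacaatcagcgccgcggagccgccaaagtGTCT
*Grem1*, chr2:113758649-113758898, strand -: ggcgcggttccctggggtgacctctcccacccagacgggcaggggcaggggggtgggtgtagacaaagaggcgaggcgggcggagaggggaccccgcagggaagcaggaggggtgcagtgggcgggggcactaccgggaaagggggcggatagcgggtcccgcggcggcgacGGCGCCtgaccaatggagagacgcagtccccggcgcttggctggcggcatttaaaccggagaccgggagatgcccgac

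*Smad9* held GGCGCC at positions -51 to -46 and *Grem1* at positions -78 to -73, where the base before the start is -1. *Smad6* held GTCTAGAC at positions -4 to 4, across the start, so that only its first bases are at the end of the stretch shown. No match overlapped another, and GACCACCCA was found in none of the 29 genes. Among the 32851 promoters in the table, 11.9% held GGCGCC, 0.213% held GTCTAGAC and 0.253% held GACCACCCA. Of the 29 genes, 10 held GGCGCC and 1 held GTCTAGAC. A gene with more than 1 promoter was counted when any of them matched. These counts are thus per gene, while the shares above are per promoter. Between 63.2% and 73.2% of the bases shown are G or C, against a median of 52.4% over all promoters.

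Of the BMP and GDF ligands among the 41 genes, *Bmp4* was the one with the largest change in *Pparg-cKO* ureters. In DMSO its log2 intensity was 14.46 (male) and 15.02 (female) in control pools, and 14.69 and 14.91 in the *Pparg-cKO* pools. With purmorphamine it was 15.26 and 15.34 in control and 15.69 and 15.85 in *Pparg-cKO* pools. All 4 pools with purmorphamine lay above all 4 with DMSO, and both *Pparg-cKO* pools with purmorphamine lay above all others. The gene rose by 0.97 on the log2 scale in *Pparg-cKO* ureters (standard error 0.14, 1.96-fold, adjusted p = 0.0352), with 1.00 for the male array and 0.94 for the female one. In control ureters the difference of 0.56 (standard error 0.14, adjusted p = 0.135) was not past the threshold, and the male array gave 0.79 against 0.32 for the female one. The 8 smooth muscle markers, which the mesenchyme around the epithelium expresses, had median log2 changes of 0.71 in control and 0.81 in *Pparg-cKO* ureters. None was called, while 7 of the 8 were higher at an unadjusted p under 0.05 in each genotype. The summed linear intensity of the 8 was 288830 to 398962 in pools with DMSO and 553765 to 662487 in pools with purmorphamine. The 7 fibroblast markers had a median log2 change of 0.42 in both genotypes with 0 called, and sums of 268469 to 342849 with DMSO and 372537 to 424834 with purmorphamine. The 10 urothelial markers had medians of 0.47 in control, with 2 called higher and 1 lower, and 0.48 in *Pparg-cKO* ureters, with 4 called higher and 1 lower. Their sums were 300931 to 414577 with DMSO and 370458 to 560862 with purmorphamine. The part of these markers, and of the leukocyte markers, in the values of *Bmp4* and of the other genes that were higher with purmorphamine was not tested. The difference between the *Bmp4* responses of *Pparg-cKO* and control ureters was 0.41 with a 95% interval from -0.11 to 0.93 (unadjusted p = 0.0982). Between the genotypes *Bmp4* differed by 0.06 with DMSO, with a 95% interval from -0.39 to 0.50, and by 0.47 with purmorphamine (interval from 0.03 to 0.91, adjusted p = 0.29). The call with purmorphamine was lost without either *Pparg-cKO* array, at an adjusted p of 0.0979 without the male and 0.177 without the female one, and it was kept without either control array. The sign with DMSO turned to -0.22 without the male control array and to -0.052 without the female *Pparg-cKO* array.

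*Bmp6*, a ligand of the same family, rose with purmorphamine in both genotypes. With DMSO its log2 intensity was 9.32 and 9.66 in the male and female control pools and 10.02 and 10.12 in the *Pparg-cKO* pools, and with purmorphamine 10.20 and 10.37 in control and 10.75 and 10.80 in *Pparg-cKO* pools. Each group lay apart from the other 3. The increase was 0.80 in control (standard error 0.10, 1.74-fold, adjusted p = 0.0461) and 0.71 in *Pparg-cKO* ureters (standard error 0.10, 1.63-fold, adjusted p = 0.0352). Without the male or the female array of the genotype concerned, its adjusted p was 0.105 to 0.268. *Pparg-cKO* pools were above control pools by 0.58 with DMSO (adjusted p = 0.0703) and by 0.49 with purmorphamine (adjusted p = 0.125), neither of which was past the threshold.

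*Bmp7*, which epithelia of the urinary tract express, was the ligand gene with the largest decrease in *Pparg-cKO* against control ureters, without a call. In control pools its log2 intensity was 12.51 (male) and 12.19 (female) with DMSO and 12.23 and 12.41 with purmorphamine. The *Pparg-cKO* pools gave 11.82 and 12.02 with DMSO and 11.52 and 11.78 with purmorphamine, so that all 4 lay below all 4 control pools. The difference was -0.43 with DMSO (adjusted p = 0.24) and -0.67 with purmorphamine (standard error 0.16, 1.59-fold, adjusted p = 0.0863). With purmorphamine *Bmp7* met the filter of the methods, without a call. Without normalization between arrays it was called (-0.85, adjusted p = 0.0303), a setting that shifted the median of all genes to -0.15. Of the 10 urothelial markers, 2 were called lower and 1 higher in that comparison, and their summed linear intensity was 499829 and 560862 in control and 370458 and 388634 in *Pparg-cKO* pools. Their part in this difference was not tested.

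The other BMP and GDF ligands were not called. *Bmp5* lay at 13.05 to 13.06 in the *Pparg-cKO* and 12.61 to 12.82 in the control pools with DMSO, at an adjusted p of 0.162, and was lower with purmorphamine on all 4 arrays, by -0.34 in control (adjusted p = 0.182) and -0.30 in *Pparg-cKO* ureters (adjusted p = 0.187). *Bmp2*, *Bmp3* and *Gdf10* had log2 changes between 0.13 and 0.36 with purmorphamine. Their differences between the genotypes ran from -0.11 to 0.18.

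**Figure D2:**
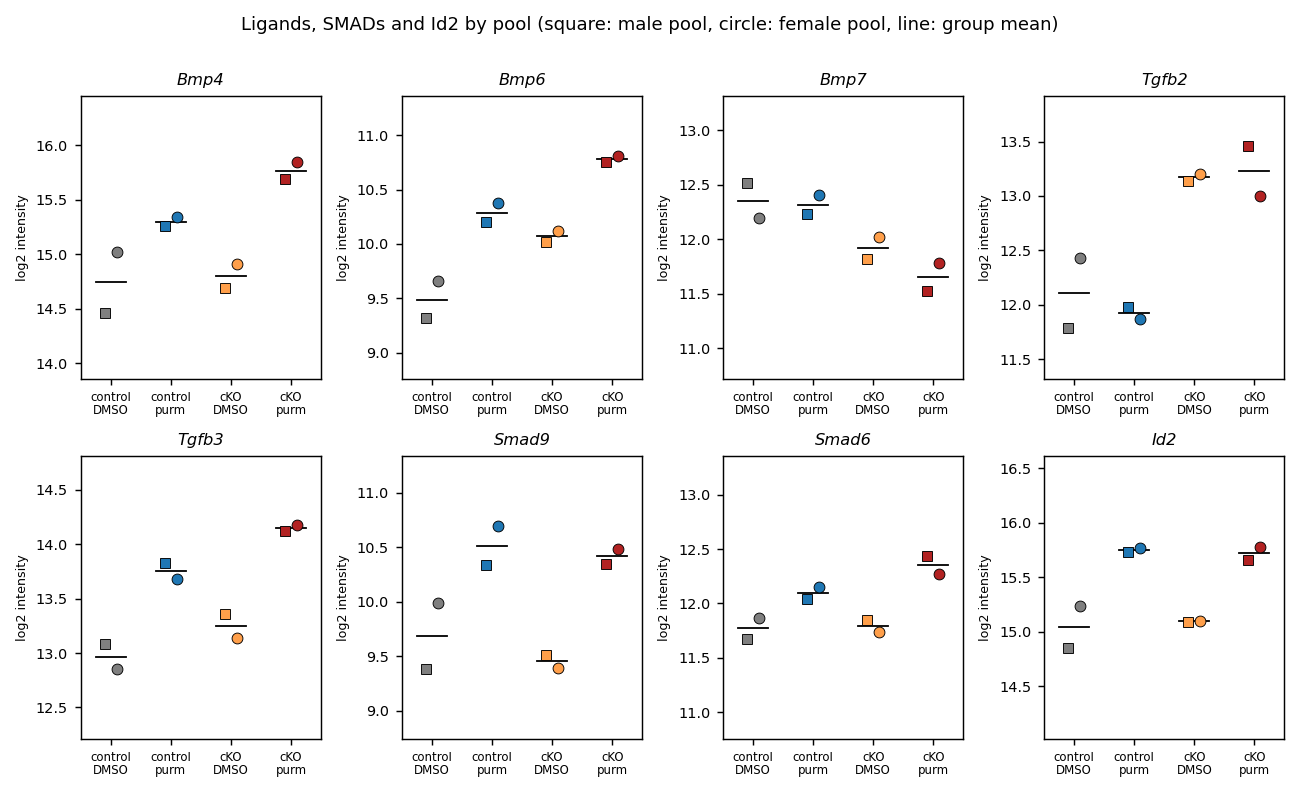
Log2 intensity (vertical axes) of 8 genes in the 4 groups (horizontal axes, purm for purmorphamine and cKO for *Pparg-cKO*). Squares are male pools, circles are female pools and lines are group means of 2 pools. *Bmp4*, *Tgfb3*, *Smad9*, *Smad6* and *Id2* were higher in all pools with purmorphamine than in any pool with DMSO. *Tgfb2* was higher in all *Pparg-cKO* than in any control pool. The share of all genes that lay apart likewise was not worked out.

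Among the TGF-beta ligands, *Tgfb2* was called between the genotypes with purmorphamine, and *Tgfb3* was called for the response of *Pparg-cKO* ureters to purmorphamine. For *Tgfb2* the log2 intensity was 11.78 and 12.43 in the male and female control pools with DMSO and 11.98 and 11.87 in those with purmorphamine. In *Pparg-cKO* pools it was 13.13 and 13.20 with DMSO and 13.46 and 13.00 with purmorphamine. The lowest *Pparg-cKO* pool was above the highest control pool. With purmorphamine the difference between the genotypes was 1.31 (standard error 0.23, 2.47-fold, adjusted p = 0.038), and the male pair gave 1.48 against 1.13 for the female one. This was the only call among the 40 genes in this comparison, in which 1.24% of all genes were called higher and 1.9% lower. With DMSO the difference was 1.06 (standard error 0.23, 2.09-fold, adjusted p = 0.0622), so that 0 of the 40 genes were called, where 2% of all genes were called higher and 1.9% lower. A second *Tgfb2* probe differed by 1.01 with DMSO and 0.96 with purmorphamine. With the mean of both probes the gene was called with DMSO too, at an adjusted p of 0.0346 (range over all alternatives 0.0346 to 0.246). The call with purmorphamine was lost without each array in turn, at adjusted p values of 0.119 without the male and 0.15 without the female control array, and 0.0847 without the female and 0.283 without the male *Pparg-cKO* array. The call was also lost without normalization between arrays (adjusted p = 0.0578). With purmorphamine against DMSO, *Tgfb2* was not called, with differences of -0.18 in control and 0.06 in *Pparg-cKO* ureters, and 0.08 and 0.04 for the second probe.

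*Tgfb3* had log2 intensities of 13.09 and 12.85 in control and 13.36 and 13.14 in *Pparg-cKO* pools with DMSO, in the order male and female. Purmorphamine pools gave 13.83 and 13.68 in control and 14.12 and 14.17 in *Pparg-cKO* ureters, all above the DMSO pools. The gene rose by 0.90 in *Pparg-cKO* ureters (standard error 0.12, 1.87-fold, adjusted p = 0.0282). In control ureters the difference was 0.79 (standard error 0.12, adjusted p = 0.0582). The difference between the responses was 0.11, with a 95% interval from -0.31 to 0.54. *Tgfb3* was also higher in *Pparg-cKO* than in control ureters in the male and the female pair, without a call. This difference was 0.28 with DMSO (adjusted p = 0.36) and 0.39 with purmorphamine (adjusted p = 0.188). The call in *Pparg-cKO* ureters was kept without their male array (adjusted p = 0.0472) and lost without their female array (adjusted p = 0.235).

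*Tgfb1* and the activin subunit genes *Inhba* and *Inhbb* were not called in any comparison. *Inhbb* was lower with purmorphamine by -0.72 in *Pparg-cKO* ureters (adjusted p = 0.0714), from 13.63 and 13.79 in the DMSO pools to 13.17 and 12.81. In control ureters the difference was -0.11, and that between the responses was -0.61 (unadjusted p = 0.0392). *Inhbb* is given because it was the other gene besides *Grem1* with an unadjusted p under 0.05 for that difference, and was chosen after its values were seen. The activin and TGF-beta ligands did not share a direction, with log2 changes from -0.72 to 0.90 in *Pparg-cKO* and from -0.36 to 0.79 in control ureters.

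The 11 receptor genes showed no call. With purmorphamine 7 of them were higher and 2 lower on both *Pparg-cKO* arrays, against 33.9% and 36.1% of all genes. On both control arrays 8 were higher and 2 lower, against 30.9% and 28% of all genes. By their brightest probes, the receptor genes had log2 changes from -0.29 to 0.76. The type I receptor gene *Bmpr1b* had the largest, 0.76 in control ureters (adjusted p = 0.15), while a second, dimmer probe for it gave 0.05. The type I receptor gene *Bmpr1a* differed by 0.32 and 0.34 and the type II receptor gene *Bmpr2* by 0.27 and 0.50 in control and *Pparg-cKO* ureters. *Acvrl1* and *Eng*, receptors known from endothelial cells, differed by 0.54 (adjusted p = 0.104) and 0.18 in *Pparg-cKO* ureters. The 7 endothelial markers had a median log2 change of 0.50 there, of which 2 were called higher, and their summed intensity was 20668 to 21872 with DMSO and 37533 to 40118 with purmorphamine. In control ureters *Acvrl1* and *Eng* differed by 0.29 and 0.08, while the endothelial markers had a median of 0.88, with 1 called higher. The part of the endothelial markers in the values of *Acvrl1* and *Eng* was not tested. The TGF-beta type I receptor gene *Tgfbr1* was the receptor with the lowest change in control ureters, -0.29 (adjusted p = 0.203). A dimmer *Tgfbr2* probe gave -0.23 in control and 0.33 in *Pparg-cKO* ureters, against 0.10 and 0.13 for the brightest one.

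Between the genotypes, the brightest probes of the receptor genes differed by -0.54 to 0.32. The lowest value was that of *Bmpr1b* with purmorphamine, where its dimmer probe gave 0.14. *Tgfbr2*, the type II receptor for TGF-beta, met the filter of the methods with purmorphamine through 1 of its 2 probes. Its brightest probe had log2 intensities of 14.68 and 14.64 in control and 14.56 and 14.78 in *Pparg-cKO* pools with DMSO, and of 14.79 and 14.73 and of 14.86 and 14.74 with purmorphamine, which gave a difference of 0.04 with purmorphamine (95% interval from -0.22 to 0.30). The dimmer probe read 11.68 and 11.27 in control and 12.25 and 11.95 in *Pparg-cKO* pools with purmorphamine, with a difference of 0.63 (standard error 0.19), and 11.52 and 11.89 in control and 11.81 and 11.74 in *Pparg-cKO* pools with DMSO. The probes of *Tgfbr2* thus disagree. By their brightest probes, *Acvr1*, *Acvr2a*, *Acvr2b* and *Tgfbr3* differed by -0.19 to 0.32 between the genotypes. A dimmer *Acvr1* probe gave -0.20 with DMSO and -0.33 with purmorphamine, against 0.13 and 0.11 for the brightest one. For *Acvr2a* a dimmer probe gave 0.44 and 0.41, against 0.32 and 0.18. *Tgfbr1* differed by 0.02 and 0.11, while dimmer probes gave 0.22 and -0.24 with DMSO and 0.47 and 0.14 with purmorphamine.

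Of the antagonists, *Grem1* fell with purmorphamine in *Pparg-cKO* ureters. Gremlin binds BMP2, BMP4 and BMP7 and keeps them from their receptors. The log2 intensity was 8.44 (male) and 7.72 (female) in control pools with DMSO and 8.56 and 7.82 in those with purmorphamine. In *Pparg-cKO* pools with DMSO it was 8.68 and 9.62, above all control pools, and with purmorphamine 7.78 and 7.72, at the lower end of the control pools. The change was -1.40 (standard error 0.24, 2.65-fold lower, adjusted p = 0.0457), and the male array gave -0.91 against -1.90 for the female one. In control ureters it was 0.11, with a 95% interval from -0.51 to 0.73. *Grem1* did not meet the intensity threshold of the filter of the methods there, nor between the genotypes with purmorphamine. The difference between the responses was -1.51 (standard error 0.34, 95% interval from -2.39 to -0.64, unadjusted p = 0.0067), and it was not past the threshold after adjustment over all genes. Between the genotypes *Grem1* differed by 1.07 with DMSO (standard error 0.38, adjusted p = 0.233), where the pairs gave 0.24 (male) and 1.90 (female), and by -0.44 with purmorphamine (adjusted p = 0.68). The call was kept without the male *Pparg-cKO* array (-1.90, adjusted p = 0.00707). It was lost without the female one (-0.91, adjusted p = 0.151) and without either control array (adjusted p = 0.0634). The summed intensity of the kidney markers was likewise highest in the *Pparg-cKO* pools with DMSO, and was alike in the male and the female pool (5172 and 5207). All 5 markers were well above background in these pools, against 1 to 4 of 5 in the other pools. Their part in the values of *Grem1* was not tested.

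Follistatin, encoded by *Fst*, traps activins and some BMPs. Its log2 intensity was 11.60 (male) and 11.74 (female) in control and 12.44 and 11.84 in *Pparg-cKO* pools with DMSO. With purmorphamine it was 11.04 and 10.59 in control and 11.82 and 11.63 in *Pparg-cKO* pools, so that the control pools with purmorphamine were the lowest of all. *Fst* was lower with purmorphamine on all 4 arrays, by -0.85 in control (standard error 0.19, adjusted p = 0.106) and -0.41 in *Pparg-cKO* ureters (adjusted p = 0.29). With purmorphamine it was higher in *Pparg-cKO* than in control ureters by 0.91 (standard error 0.23, 1.87-fold, adjusted p = 0.102). It met the filter of the methods in that comparison, without a call.

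The noggin gene *Nog* had log2 intensities of 7.24 to 7.54 in the *Pparg-cKO* and 7.68 to 8.20 in the control pools, without overlap. It was dim and did not meet the intensity threshold of the filter of the methods in any comparison. The differences of -0.45 with DMSO (adjusted p = 0.152) and -0.51 with purmorphamine (adjusted p = 0.115) were not past the threshold. For *Chrdl1*, which encodes a chordin-like BMP antagonist and was chosen after its values were seen, 1 pool set the spread. The female *Pparg-cKO* pool with purmorphamine read 9.14 and the male one 7.41, while the *Pparg-cKO* pools with DMSO read 7.28 and 7.06 and the control pools 8.24 to 8.93. Its difference with DMSO was -1.37 (standard error 0.52, adjusted p = 0.263), and 2 other probes gave -1.05 and -0.41. *Chrdl1* did not meet the intensity threshold of the filter in that comparison. The 6 fat cell markers also set these pools apart, with summed linear intensities of 70232 (male) and 216011 (female) in *Pparg-cKO* pools with purmorphamine, 243084 and 192574 in those with DMSO, and 261767 to 438636 in control pools. None of the 6 was called in any comparison, all were well above background in every pool, and their part in the values of *Chrdl1* was not tested. The follistatin-like genes *Fstl1* and *Fstl3* had log2 changes of 0.39 and 0.54 with purmorphamine in *Pparg-cKO* and 0.32 and 0.29 in control ureters, with adjusted p between 0.065 and 0.25. *Chrd*, for chordin, and *Ltbp1*, for a protein that anchors latent TGF-beta in the matrix, differed by -0.40 to 0.41 over the 4 comparisons.

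**Figure D3:**
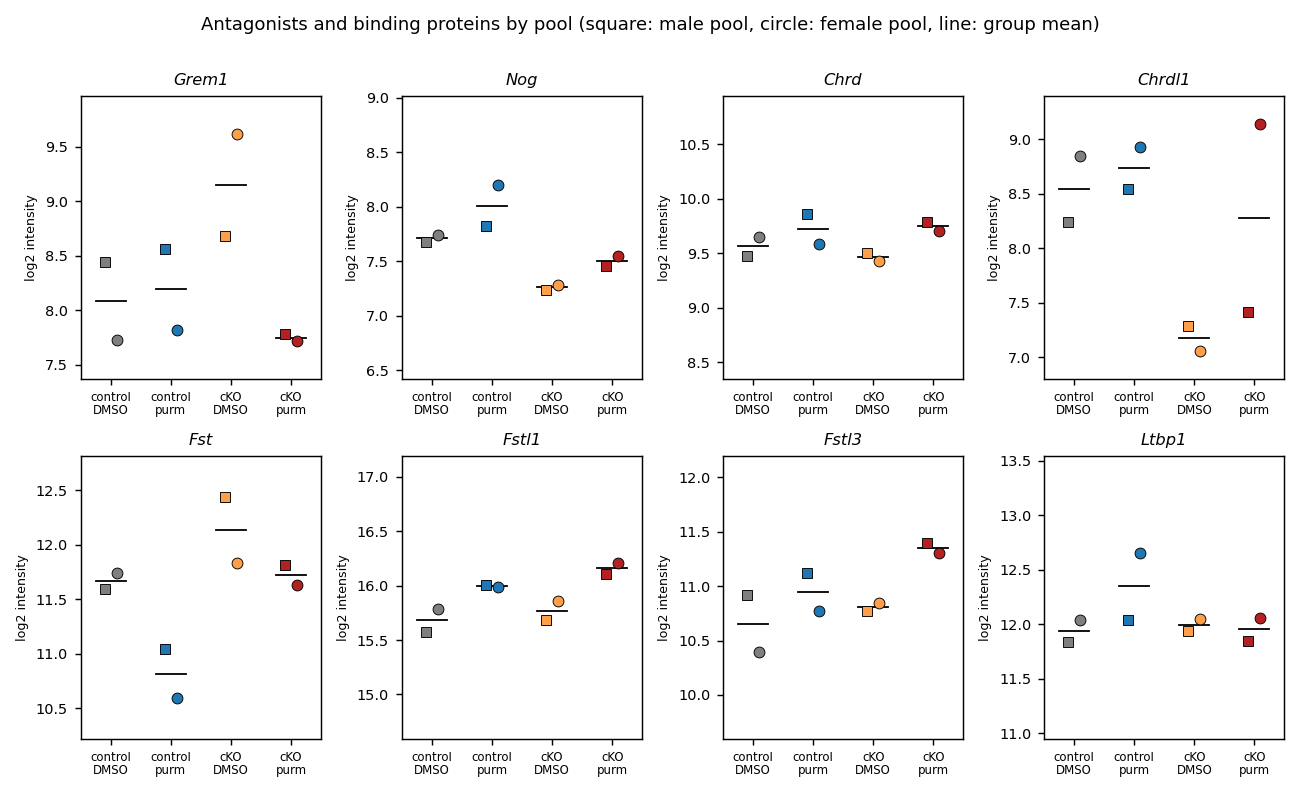
Log2 intensity (vertical axes) of 8 antagonists and binding proteins in the 4 groups (horizontal axes, purm for purmorphamine and cKO for *Pparg-cKO*). Squares are male pools, circles are female pools and lines are group means of 2 pools. *Grem1* was highest in the *Pparg-cKO* pools with DMSO (8.68 and 9.62). *Nog* was lower in all *Pparg-cKO* than in all control pools, and the share of all genes that were so was not worked out. The *Pparg-cKO* pools of *Chrdl1* with purmorphamine lay far apart (7.41 and 9.14).

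The signal transducers of the BMP branch differed from each other. *Smad9*, whose product is a receptor-regulated SMAD, had log2 intensities of 9.39 and 9.99 in control and 9.51 and 9.39 in *Pparg-cKO* pools with DMSO, in the order male and female. With purmorphamine it was 10.34 and 10.69 in control and 10.34 and 10.49 in *Pparg-cKO* pools, above all pools with DMSO. It rose by 0.96 in *Pparg-cKO* ureters (standard error 0.13, 1.95-fold, adjusted p = 0.0288), and the difference in control ureters was 0.83 (standard error 0.13, adjusted p = 0.062). Without the female *Pparg-cKO* array the call was lost (adjusted p = 0.212), and without the male one it was kept (adjusted p = 0.0451). *Smad1* and *Smad5* differed by -0.07 to 0.14, and a dimmer *Smad5* probe gave -0.50 in control and -0.29 in *Pparg-cKO* ureters, against the brightest probe's 0.14 and 0.13.

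*Smad6*, which BMP signaling induces and which feeds back on the receptors, was the inhibitory SMAD gene that was called. The log2 intensity was 11.67 and 11.87 in control and 11.85 and 11.74 in *Pparg-cKO* pools with DMSO. It was 12.04 and 12.15 in control and 12.44 and 12.27 in *Pparg-cKO* pools with purmorphamine, and the treated pools lay above all others. *Smad6* rose by 0.56 in *Pparg-cKO* ureters (standard error 0.10, 1.48-fold, adjusted p = 0.0487), close to the threshold, and the difference in control ureters was 0.32 (adjusted p = 0.179). The call was lost without each of the 4 arrays, with adjusted p between 0.0524 and 0.401. *Smad7*, the other inhibitory SMAD gene, differed by 0.03 in control and 0.22 in *Pparg-cKO* ureters.

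The *Id* genes encode inhibitors of basic helix-loop-helix factors and are the usual readout of BMP signaling. *Id2* read 14.85 and 15.23 in control and 15.09 and 15.10 in *Pparg-cKO* pools with DMSO, and 15.73 and 15.77 and then 15.66 and 15.78 with purmorphamine. The pools of the 2 treatments did not overlap in either genotype. Its log2 difference was 0.71 in control (standard error 0.13, 1.63-fold, adjusted p = 0.0796) and 0.62 in *Pparg-cKO* ureters (standard error 0.13, 1.54-fold, adjusted p = 0.062). *Id2* met the filter of the methods in *Pparg-cKO* ureters, and none of the 4 *Id* genes was called. *Id1* and *Id3* were higher with purmorphamine on all 4 arrays, with differences from 0.26 to 0.42 and adjusted p from 0.0854 to 0.262. *Id4* differed by 0.04 and -0.06 with treatment, and was higher in *Pparg-cKO* ureters by 0.49 with DMSO (adjusted p = 0.222) and 0.40 with purmorphamine (adjusted p = 0.333).

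**Figure D4:**
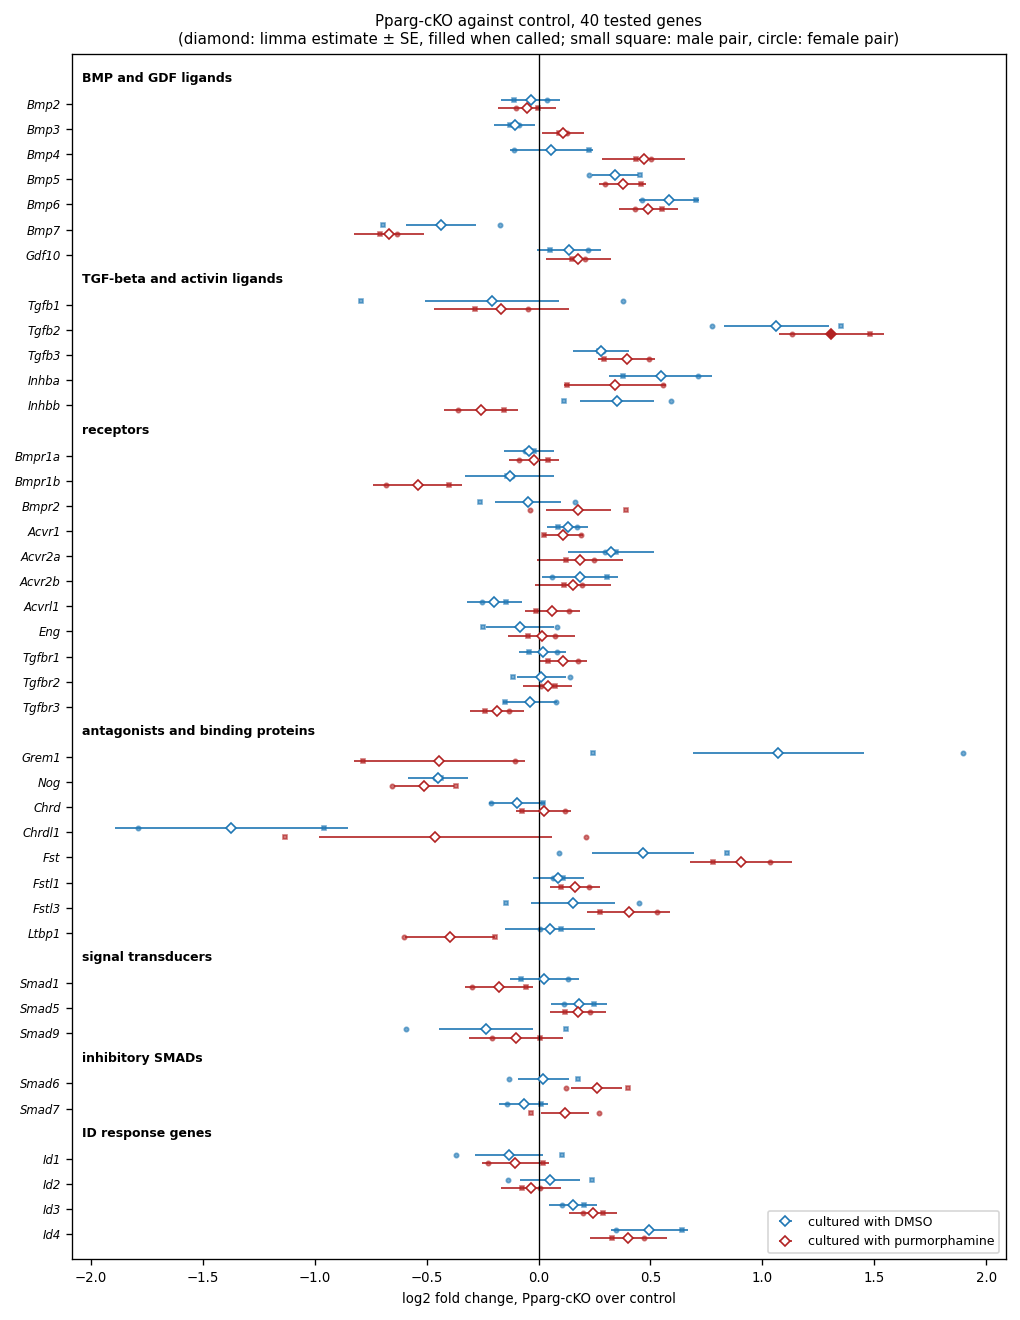
Log2 fold change of *Pparg-cKO* over control (horizontal axis) for the 40 tested genes (vertical axis, by role) in ureters cultured with DMSO (blue) or purmorphamine (red). Diamonds with bars are limma estimates with their standard errors, filled when called, and small squares and circles are the male and the female pair. *Tgfb2* was the only gene called, with purmorphamine, and the 2 pairs of *Grem1* with DMSO lay at 0.24 and 1.90.

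Between the genotypes the 40 genes had a median log2 difference of 0.04 with DMSO and 0.11 with purmorphamine, against 0.00 and 0.00 over all genes. In both pairs, 17 genes were higher and 7 lower in *Pparg-cKO* ureters with DMSO, and 20 were higher and 10 lower with purmorphamine. Over all genes, these shares were 27.1% higher and 28.3% lower with DMSO, and 34.3% and 35.6% with purmorphamine. At an unadjusted p under 0.05, 6 genes were higher and 3 lower in each of the comparisons, where 15.8% of all genes with DMSO and 15.6% with purmorphamine passed in either direction. The filter of the methods was met by 1 of 37 bright genes with DMSO, *Tgfb2*, where 5.5% of all bright genes met it. With purmorphamine it was met by 4 of 38, *Tgfb2*, *Fst*, *Bmp7* and *Tgfbr2*, where 6.28% of all bright genes met it.

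A wider list of 73 pathway genes outside the 41 had 67 that were tested. With purmorphamine in *Pparg-cKO* ureters 6 were called higher and 3 lower, against 2.02% and 3.1% of all genes. In control ureters 1 was called higher and 0 lower, against 0.405% and 1.12% of all genes. An unadjusted p under 0.05 was reached by 13 higher and 8 lower genes of the list in *Pparg-cKO* ureters (22.2% of all genes in either direction), and by 10 higher and 8 lower in control ureters (19.6%). Between the genotypes 2 were called higher and 2 lower with DMSO, against 2% and 1.9% of all genes, and 3 higher and 0 lower with purmorphamine, against 1.24% and 1.9%. At an unadjusted p under 0.05, 8 were higher and 10 lower between the genotypes with DMSO (15.8% of all genes in either direction). With purmorphamine, 8 genes of the list were higher and 8 lower between the genotypes at that level (15.6%). *Fmod*, for fibromodulin, a matrix proteoglycan that binds TGF-beta, had the largest change among the called genes of the list and rose by 1.52 in control (adjusted p = 0.0189) and by 2.20 in *Pparg-cKO* ureters (adjusted p = 0.00977). *Sostdc1*, for a secreted BMP antagonist that is strongly expressed in kidney tubules, was higher in *Pparg-cKO* than in control ureters with DMSO by 1.85 (adjusted p = 0.0421) and fell by 1.69 with purmorphamine in *Pparg-cKO* ureters (adjusted p = 0.0149). Of the 5 kidney markers, 3 were called in the same direction in each of these comparisons. The 5 had log2 differences from -0.22 to 4.36 between the genotypes with DMSO, and from -3.64 to -0.55 with purmorphamine in *Pparg-cKO* ureters. The part of these markers in the values of *Sostdc1* was not tested. *Gdf6*, for a BMP family ligand, rose by 1.12 (adjusted p = 0.0156) and *Ltbp2*, for a matrix protein of the latent TGF-beta binding family, by 1.07 (adjusted p = 0.0423) in *Pparg-cKO* ureters. *Itgb6*, for an epithelial integrin subunit that activates latent TGF-beta, was higher in *Pparg-cKO* ureters with purmorphamine by 1.20 (adjusted p = 0.0485). *Tgfbi*, a matrix protein gene named for its induction by TGF-beta, fell by 0.88 with purmorphamine in *Pparg-cKO* ureters (adjusted p = 0.0297). The 2 genes called lower between the genotypes with DMSO, that is with less signal in *Pparg-cKO* ureters, and chosen for naming after their values were seen, were *Thbs1*, for a matrix protein that activates latent TGF-beta (-0.84, adjusted p = 0.00668), and the protease gene *Htra3* (-0.59, adjusted p = 0.0489). The largest differences of the list in size, also chosen after they were seen, belonged to the type I receptor gene *Acvr1c*. They were -2.31 with DMSO (standard error 0.77, adjusted p = 0.198) and -3.32 with purmorphamine (standard error 0.77, adjusted p = 0.0818). Neither was past the threshold. The 6 fat cell markers had median log2 differences of -1.24 with DMSO and -2.43 with purmorphamine between the genotypes, with 0 called. Their part in the values of *Acvr1c* was not tested.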

How the data were processed

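Microarray data of cultured ureters were used, in 4 groups of 2 pools. Per the labels, the scanner software was Agilent Feature Extraction 10.7.3.1, while the file headers name 12.2.0.7. Per the file headers, the intensity values of each spot and dye are the mean signal and the local background as scanned, and processed intensities that were background-subtracted and dye-normalized within the array. The deposited log10 ratio, red over green, served to check the direction of the dyes, and the flags set by the same software gave outliers and spots above background. The score in the deposited value table holds signed fold changes, purmorphamine against DMSO, whose normalization is not stated, and was used as an alternative. Its median was 1 on each array, and its log2 had an r of 0.995 to 0.998 with the scaled log2 ratios of the processed signals.

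Mean intensities were corrected with normexp (offset 50) and loess within arrays in limma 3.58.1 (R 4.3.3, data.table version 1.17.8), with control and outlier spots at weight 0, and the spots of a probe were averaged. The effect of purmorphamine was fitted on the log ratios. The genotypes, never on the same array, were contrasted after Aquantile normalization in a separate-channel fit (intraspot correlation 0.0587, from 4000 probes, also used when an array was left out). All groups shared the estimate of the spread. Tested were 27064 probes that were well above background, in the majority of their spots, in both pools of at least 1 group, and the brightest stood for its gene. The 41 genes had 59 probes, and 13 genes had more than 1. Per channel, 66.3% to 70.5% of the 157716 spots were well above background and 0 were saturated. With 2 arrays per genotype, the precision of each value rests on few arrays. For the filter of the methods, which is read here as both pairs, processed signals were scaled to a 75th percentile of 1500 with a floor of 15, and any probe could make a gene pass.

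Every pool value is given for genes called or passing that filter and for *Bmp4*; of the wider list, the 6 called genes with the largest change are named. The genes and lists were chosen with earlier results of these data known. Promoters come from RefSeq tables (GRCm38.p6), and figures from Python 3.11.15 (matplotlib 3.10.9). The fits were tested on simulated data. A log2 change of 1 was called in 68% of changed genes between the genotypes with DMSO. For purmorphamine it was called in 38% in control and in 16% in *Pparg-cKO* ureters. A log2 change of 2 was called in 86%, 82% and 67%, in the same order. A missing call thus does not show that a gene was unchanged. Alternatives covered background correction, offset, the filter on dim probes, the choice of probe, normalization between arrays, the replicate block, and each array left out.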

Additional observations from a re-analysis of the deposited data

Results flagged for a closer look

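*Grem1* is listed because its response to purmorphamine went one way on both control arrays (log2 changes of 0.12, male, and 0.10, female) and the other way on both *Pparg-cKO* arrays (-0.91 and -1.90). The response of *Pparg-cKO* minus that of control ureters was -1.51 (standard error 0.34, unadjusted p = 0.0067), and the Benjamini-Hochberg adjusted p of limma's test over all 20229 genes was 0.9998. The changes on the control arrays are smaller than the standard error of 0.24 of the *Grem1* response.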

How the results depend on the processing

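Of the counts of the 41 genes, 37 values under the alternatives kept to within 1.5 times the reported value and 34 moved. On the processed signals of the scanner software and without the filter on dim probes, 0 genes were called between the genotypes with purmorphamine, 0 for purmorphamine in control and 0 in *Pparg-cKO* ureters. Over all genes these alternatives gave 0 and 323 calls in *Pparg-cKO* ureters (reported 1036), 0 and 13 in control ureters (308), 228 and 449 between the genotypes with purmorphamine (635), and 495 and 651 with DMSO (789). On the processed signals the calls between the genotypes with purmorphamine split into 112 higher and 116 lower, against 250 and 385. An offset of 0 gave 0 of the 41 genes in control ureters and 155 calls over all genes. The deposited table of signed fold changes gave 0 in control and 0 in *Pparg-cKO* ureters, and 0 calls over all genes. The mean of a gene's probes gave 1 (*Tgfb2*) between the genotypes with DMSO. Without normalization between arrays the median of all genes shifted to -0.15 in both genotype comparisons, with 342 higher and 722 lower calls with DMSO (404 and 385 reported) and 196 and 757 with purmorphamine, *Bmp4* turned to -0.17 with DMSO and *Tgfbr2* to -0.18 with purmorphamine, close to that shift, *Tgfb2* lost its call with purmorphamine and *Bmp7* gained one.

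The replicate numbers stand for sex and dye orientation and do not pair animals. With the replicate block, 0 of the 41 genes were called between the genotypes with DMSO, 0 with purmorphamine, 0 for purmorphamine in control and 5 in *Pparg-cKO* ureters, and 340 and 156 genes in all between the genotypes. Deviations of same-numbered DMSO pools correlated at -0.149 between the genotypes, while those of the purmorphamine pools correlated at 0.47, and those of DMSO and purmorphamine pools at 0.0824 in control and 0.349 in *Pparg-cKO* ureters. For *Tgfb2* with purmorphamine the adjusted p under the block was 0.18. For the DMSO comparison the crossed block, chosen after seeing the data, gave 0 of the 41 genes and 732 in all.

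With each array left out, assuming that the lone array of a genotype varies like the others, the calls among the 41 genes ran from 0 to 0 in both genotype comparisons, 0 to 3 for purmorphamine in control and 0 to 5 in *Pparg-cKO* ureters. All-gene calls ran from 64 to 437, 17 to 346, 0 to 698 and 181 to 1177, and from 0 to 44 for the difference of the responses. *Bmp4* with DMSO ran from -0.22 to 0.34, turning to -0.22 without the male control and -0.052 without the female *Pparg-cKO* array, and *Tgfbr2* with purmorphamine ran from -0.018 to 0.10, with -0.018 without the male *Pparg-cKO* array. For the other settings of the filter of the methods, shares over all bright genes are not given, so that these counts cannot be set against a background. At 2-fold the filter was met by 0 of the 41 genes between the genotypes with DMSO and 1 with purmorphamine. It was met by 0 for purmorphamine in control and 2 in *Pparg-cKO* ureters, and without its intensity threshold by 3 between the genotypes with DMSO. With 1 pair left out it was met by 6 to 6, 7 to 8, 6 to 8 and 11 to 11. Of the single-gene values, 145 kept their direction and side of the threshold, 48 lost the call, 8 gained one and 5 reversed. The cause was not tested.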
